A study of Homo sapiens with 4 samples.

Results

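The genes examined here are the chains of the interferon receptors and the first signalling proteins behind them: IFNAR1, IFNAR2, IFNGR1, IFNGR2, JAK1, JAK2, TYK2, STAT2 and IRF9. They were taken by symbol from the gene counts of a human RNA-seq series, and all 9 of the 9 symbols were found among the 61228 genes listed. RNA-seq was done on H1792, an established human lung cancer cell line whose genotype the labels give as WT. Cells were kept for 96 h with the solvent DMSO or with ACBI1, and each group held 2 libraries, numbered as replicates. ACBI1 is a degrader that brings SMARCA2, SMARCA4 and PBRM1, proteins of the SWI/SNF chromatin remodelling complexes, to the VHL ubiquitin ligase. The labels write its dose as 1 mM, which is unusually high for such a molecule and could not be checked from the counts. No interferon treatment is described for either group, so the values are those of cells without an added ligand. All libraries come from 1 cell line, and the labels do not say whether replicates were separate cultures, so the p-values measure the spread between these libraries, which may be technical.

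Type I interferons bind a receptor made of IFNAR1 and IFNAR2, and type II interferon binds a receptor made of IFNGR1 and IFNGR2. Inside the cell, TYK2 is attached to IFNAR1, JAK1 to IFNAR2 and IFNGR1, and JAK2 to IFNGR2; these kinases phosphorylate STAT proteins when a ligand brings the chains together. STAT2 joins another STAT and the DNA-binding protein IRF9 in the complex ISGF3, which binds the interferon-stimulated response element (ISRE) of type I target genes, while type II signalling acts through STAT dimers at the gamma-activated site (GAS).

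The libraries held 85037263 and 73238474 gene counts with DMSO and 86010100 and 64281850 with ACBI1. Of the degrader's target genes, SMARCA4 had a log2 change of 0.70 (adjusted p 0.0583), SMARCA2 one of -0.40 (adjusted p 0.163) and PBRM1 one of 0.10 (adjusted p 0.734) in edgeR's quasi-likelihood test, so that none passed the threshold of 0.05; transcript levels do not show whether the proteins were degraded. Counts of 8 of 10 lung and epithelial markers were found in every library, with KRT7, KRT8 and KRT18 abundant. Some of the 8 had very few: CDH1 had 4 to 16 counts per library, SFTPB 6 to 9 and NAPSA 4 to 17. NKX2-1 had 0 counts in each library and SFTPC had 0 or 1, so the lung-lineage markers were close to absent. Summed levels of the 10 markers were 982 to 1035 CPM (counts per 1000000 gene counts, scaled between libraries) with DMSO and 202 to 324 CPM with ACBI1. Most of the DMSO sum was KRT7, at 678 and 680 CPM with DMSO and 179 and 60.3 CPM with ACBI1. EPCAM had 5.38 and 2.78 CPM with DMSO and 15.6 and 4.84 CPM with ACBI1, with overlapping groups and a log2 change of 1.32 that was not called (edgeR adjusted p 0.179). Of 7 fibroblast markers the sum was 995 to 1951 CPM with DMSO and 88.8 to 274 CPM with ACBI1. Nearly all of the DMSO sum was COL1A1 (324 and 693 CPM) and COL1A2 (646 and 1189 CPM), while THY1 had 0 or 1 counts per library. The sum of 5 endothelial markers, with DMSO nearly all PECAM1, was 12.8 to 49.0 against 0.122 to 0.123 CPM. Of 11 leukocyte markers, CD3D, CD3E and MS4A1 had 0 counts throughout, and the sum was 0.651 to 2.11 against 0.458 to 0.686 CPM. The part of these shifts in the results below was not tested.

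Of the 9 genes, 2 fell with ACBI1 and none rose. STAT2, the activator partner in ISGF3, was lower by a factor of 3.43, and IFNGR1, the ligand-binding chain of the type II receptor, by a factor of 2.27. The other receptor chains, all 3 kinases and IRF9 did not pass the test. In a run with the replicate number as a block, IFNAR1, IFNAR2, IFNGR2 and JAK1 also passed, but 41.3% of all genes tested were called. The labels do not say what a replicate number marks, and the block was not used elsewhere. In bulk RNA, fewer cells with a transcript and less of it per cell cannot be told apart. The 2 falls are 22.2% of the genes examined; over all 19159 genes tested, 17.4% were called in either direction, 10.6% lower and 6.75% higher. A share over 9 genes is too coarse to be set apart from this background.

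To show what lies at the start of the genes that fell, their promoter windows were read from RefSeq (build GRCh38.p14), which has an entry for 8 of the 9 genes. IFNAR2 has none. Each window runs from 250 bases before to 50 bases after a transcript start, and where a gene has several, the one nearest to the gene start in GENCODE release 29 was used. STAT2 (chr12:56360058-56360357, minus strand) and IFNGR1 (chr6:137219336-137219635, minus strand) are shown because they fell, IRF9 (chr14:24161015-24161314, plus strand) because it is the DNA-binding partner of STAT2, and TYK2 (chr19:10380523-10380822, minus strand) as a kinase gene with a small, uncalled change. All are written 5′ to 3′ along the gene, with matches to the motifs searched in capitals.
STAT2: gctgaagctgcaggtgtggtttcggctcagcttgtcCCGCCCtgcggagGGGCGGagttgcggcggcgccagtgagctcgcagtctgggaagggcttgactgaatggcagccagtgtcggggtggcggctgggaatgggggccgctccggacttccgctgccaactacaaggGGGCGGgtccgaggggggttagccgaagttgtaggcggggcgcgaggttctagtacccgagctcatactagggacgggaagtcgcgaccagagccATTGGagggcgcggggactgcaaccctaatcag
IFNGR1: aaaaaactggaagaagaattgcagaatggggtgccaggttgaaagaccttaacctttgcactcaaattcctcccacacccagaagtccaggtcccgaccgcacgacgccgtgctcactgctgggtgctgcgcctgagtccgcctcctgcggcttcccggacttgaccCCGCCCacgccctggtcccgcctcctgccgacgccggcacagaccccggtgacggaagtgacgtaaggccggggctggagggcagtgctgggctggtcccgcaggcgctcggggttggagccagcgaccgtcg
IRF9: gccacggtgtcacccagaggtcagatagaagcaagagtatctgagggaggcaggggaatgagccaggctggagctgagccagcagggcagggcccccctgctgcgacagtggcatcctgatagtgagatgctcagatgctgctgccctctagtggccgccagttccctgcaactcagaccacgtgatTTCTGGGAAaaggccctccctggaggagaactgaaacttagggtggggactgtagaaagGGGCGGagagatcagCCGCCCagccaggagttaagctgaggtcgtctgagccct
TYK2: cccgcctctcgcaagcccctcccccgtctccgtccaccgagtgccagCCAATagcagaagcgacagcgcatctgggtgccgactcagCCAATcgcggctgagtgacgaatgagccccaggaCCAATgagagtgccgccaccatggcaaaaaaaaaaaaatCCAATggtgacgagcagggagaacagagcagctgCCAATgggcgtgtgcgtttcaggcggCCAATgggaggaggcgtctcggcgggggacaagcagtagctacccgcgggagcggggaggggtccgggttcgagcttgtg

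The motifs were searched on both strands and were the ISRE core (GAAA, any 2 bases, GAAA), a wider-spaced pair (GAAA, any 3 bases, GAAA), the GAS letters TTCNNNGAA, the TATA box TATAAA, the CCAAT box CCAAT, the GC box GGGCGG and the AP-1 site TGANTCA. In overlapping GC boxes, each match was counted. None of the 8 windows held the ISRE core or the wider-spaced pair, which occur in 3.57% and 2.86% of all 35116 RefSeq promoter windows of this length. The IRF9 window held 1 GAS match, 63 bases before the start; 7.66% of all windows have at least 1. The STAT2 window held 3 GC boxes and 1 CCAAT box, and the IFNGR1 window 1 GC box. GC boxes were found in 5 of the 8 windows and in 45.0% of all windows. The TYK2 window had no GC box and 6 CCAAT boxes, a motif with at least 1 match in 34.6% of all windows. None of the 8 windows held a TATA box (11.5% of all windows) or an AP-1 site (7.71%). Letters missing from these windows say nothing of other regulatory DNA of the genes.

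The type I receptor chains, both encoded on chromosome 21, had changes of opposite sign that did not pass the test. IFNAR1 had 100.2 and 100.2 CPM in DMSO replicates 1 and 2, and 75.4 and 77.8 CPM in ACBI1 replicates 1 and 2. The ACBI1 libraries were both lower, with no overlap between groups. Its log2 change was -0.39 (SE 0.15, 95% interval -0.74 to -0.03), with an edgeR adjusted p of 0.124; the intervals given here are not adjusted for the number of genes. IFNAR2 had 14.0 and 15.7 CPM with DMSO and 21.6 and 19.5 CPM with ACBI1. Here both ACBI1 libraries were higher, and the groups did not overlap. The log2 change of IFNAR2 was 0.47 (SE 0.19, 95% interval 0.02 to 0.92, edgeR adjusted p 0.136).

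Counts of IFNAR2 may cover only a part of the gene. In GENCODE release 29 (GRCh38), IFNAR2 lies on chromosome 21 from 33229901 to 33265675, and 83.2% of its exonic length is shared with exons of other genes. A read-through gene on the same strand, listed in the counts as IFNAR2-IL10RB, takes 44.2%, and IL10RB-DT, on the opposite strand, takes 39.1%. The overlap with IL10RB-DT matters only if strand was ignored in the counting, and the strand setting is not stated. Reads that fit several genes are set apart by the counter (4.41% to 5.07% of all reads listed), so the level of IFNAR2 may be understated by an unknown amount. IFNAR2-IL10RB itself had 9 to 20 counts per library. IFNAR1, on the same chromosome from 33324477 to 33359862, shares no exon with another gene in that annotation.

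**Figure D1:**
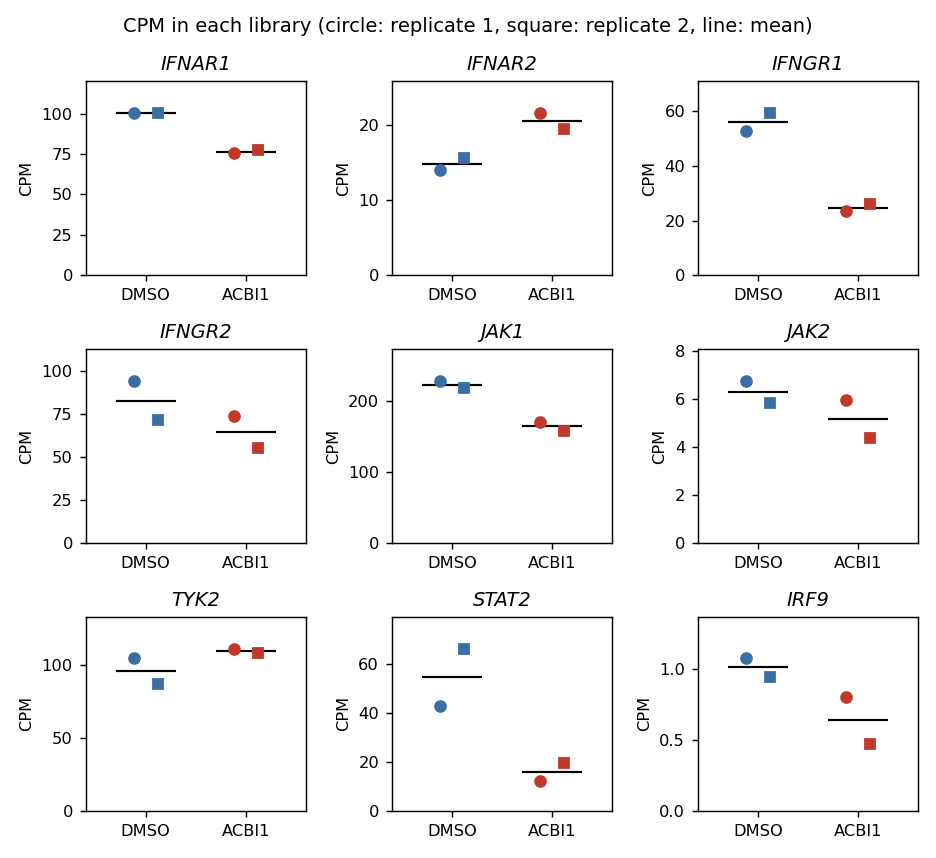
Abundance of each gene in CPM (vertical axis, linear from 0) in the 2 DMSO libraries (blue) and the 2 ACBI1 libraries (red), with a line at the group mean. The ACBI1 libraries of STAT2 and IFNGR1, the 2 genes that passed the test, lie under their DMSO libraries, while the libraries of IFNGR2 and JAK2 overlap between groups.

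The ligand-binding chain of the type II receptor fell, and the change of its partner did not pass the test. IFNGR1, on chromosome 6 from 137197484 to 137219449, had 52.9 and 59.3 CPM with DMSO and 23.4 and 26.1 CPM with ACBI1. Both ACBI1 libraries were at less than the lower DMSO library, and the 8570 DMSO counts and 3800 ACBI1 counts behind them leave little counting error. The log2 change was -1.18 (SE 0.16, 95% interval -1.58 to -0.79, edgeR adjusted p 0.00868). Without ACBI1 replicate 1 the log2 change of IFNGR1 was -1.10 and its edgeR adjusted p 0.0502, just over the threshold; the lone ACBI1 library is then assumed to vary like the DMSO libraries. IFNGR2, which carries JAK2, had 94.3 and 71.6 CPM with DMSO and 74.3 and 55.7 CPM with ACBI1. The highest ACBI1 library lay above the lowest DMSO library, so the groups overlapped. Its log2 change of -0.35 (SE 0.22, 95% interval -0.88 to 0.18) was not called (edgeR adjusted p 0.310). TMEM50B, on the opposite strand, covers 12.8% of the exonic length of IFNGR2, and the strand setting of the counting is not stated.

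**Figure D2:**
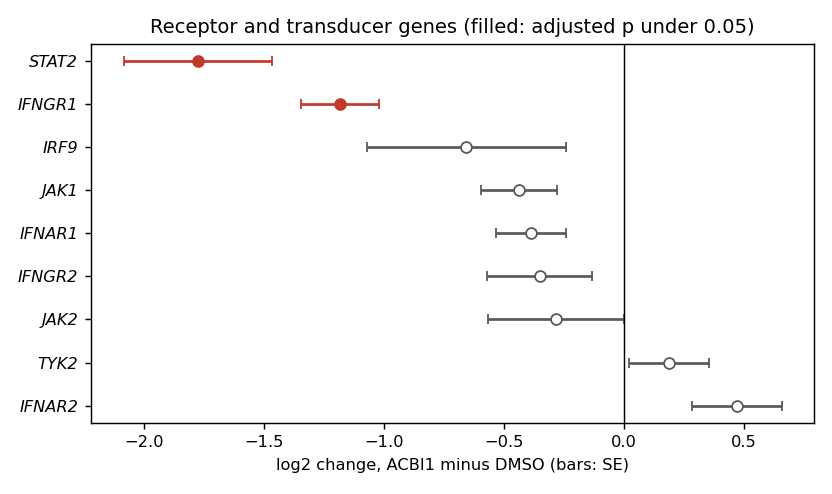
Log2 change of each gene with ACBI1 against DMSO (horizontal axis) with its standard error. Filled points passed the test: STAT2 at -1.78 and IFNGR1 at -1.18, whereas the open points lie between -0.66 for IRF9 and 0.47 for IFNAR2.

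None of the 3 kinase genes passed the test. JAK1, the kinase that both receptors use, had 229 and 219 CPM with DMSO and 171 and 159 CPM with ACBI1. Both ACBI1 libraries were lower than both DMSO libraries. The log2 change of JAK1 was -0.44 (SE 0.16, 95% interval -0.82 to -0.05, edgeR adjusted p 0.11). JAK2, the kinase on IFNGR2, had 6.74 and 5.84 CPM with DMSO and 5.95 and 4.38 CPM with ACBI1. The groups overlapped, and the log2 change of -0.28 (SE 0.28, edgeR adjusted p 0.533) had a 95% interval from -0.97 to 0.41. TYK2, the kinase on IFNAR1, had 104.8 and 86.7 CPM with DMSO and 110.7 and 107.7 CPM with ACBI1. Its ACBI1 libraries were both slightly higher, but the log2 change of 0.19 (SE 0.17, 95% interval -0.22 to 0.60) was not called (edgeR adjusted p 0.475).

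The 2 ISGF3 genes both had lower means with ACBI1, and of these STAT2 passed the test. STAT2 had 43.1 and 66.3 CPM with DMSO and 12.3 and 19.6 CPM with ACBI1. Replicate 2 was the higher library in either group, and the highest ACBI1 library was still under the lowest DMSO library. The log2 change of STAT2 was -1.78 (SE 0.31, 95% interval -2.53 to -1.03, edgeR adjusted p 0.0164). With each library left out in turn it ranged from -2.16 to -1.44, with adjusted p from 0.000126 to 0.0450. STAT2 shares no exon with another gene in GENCODE release 29, where it lies on chromosome 12 from 56341597 to 56360155.

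IRF9 had 88 and 68 counts with DMSO and 72 and 31 counts with ACBI1, which is 1.08 and 0.945 CPM against 0.804 and 0.473 CPM. The ACBI1 libraries were both lower, but the log2 change of -0.66 (SE 0.42, 95% interval -1.67 to 0.36) was not called (edgeR adjusted p 0.319). A read-through gene that starts within the neighbouring RNF31 shares 48.4% of the exonic length of IRF9 on the same strand in GENCODE release 29. That gene had 11 to 31 counts per library and RNF31 had 26 to 70. Reads in the shared part can be set apart by the counter, so the low level of IRF9 cannot be read as weak expression, and the interval of its change spans falls and rises.

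In 7 of the 9 genes the ACBI1 libraries lay entirely on one side of the DMSO libraries, IFNGR2 and JAK2 being the exceptions. Of these, 5 were lower and 2 higher with ACBI1. Among all genes tested, 63.2% had groups without overlap, 32.2% with ACBI1 lower and 31.1% with ACBI1 higher, so this separation is common here. The median log2 change of the 9 genes was -0.39, against 0.01 over all genes tested. A negative change was found in 7 of the 9, against 9498 of the 19159 genes tested, a difference that was not tested.

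Levels of different genes were compared per kilobase of exonic length (RPKM, from the CPM and GENCODE release 29 lengths). With DMSO, JAK1 was highest at 35.4 ± 1.08 RPKM (SD, n = 2), followed by IFNGR2 (28.02 ± 5.43 RPKM), IFNGR1 (17.1 ± 1.37 RPKM), IFNAR1 (15.9 RPKM in both libraries) and TYK2 (14.1 ± 1.89 RPKM). STAT2 followed at 8.95 ± 2.69 RPKM, IFNAR2 at 3.21 ± 0.261 RPKM, JAK2 at 1.02 ± 0.104 RPKM and IRF9 at 0.267 ± 0.0252 RPKM (SD, n = 2). No neighbours in this order overlapped, but IFNGR1 and IFNAR1, and IFNAR1 and TYK2, differed by less than the larger SD of the pair. The places of IFNAR2 and IRF9 may be too low because of the overlaps given above. With ACBI1, JAK1 stayed highest at 26.1 ± 1.39 RPKM and IFNGR2 next at 21.96 ± 4.46 RPKM (SD, n = 2). These 2 differed by less than the SD of IFNGR2. TYK2 followed at 16.1 ± 0.316 RPKM, then IFNAR1 at 12.2 ± 0.268 RPKM and IFNGR1 at 7.54 ± 0.584 RPKM (SD, n = 2), so that IFNGR1 moved from rank 3 to rank 5. STAT2, at rank 6 with DMSO, was at rank 7 with ACBI1 with 2.61 ± 0.847 RPKM (SD, n = 2), under IFNAR2 at 4.45 ± 0.314 RPKM.

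Ratios within a library do not depend on how libraries are scaled against each other, and they were computed per kilobase for 5 pairs chosen after the values were seen. The ratio of IFNAR1 to IFNAR2 was 5.25 and 4.68 in the DMSO libraries and 2.56 and 2.92 in the ACBI1 libraries. Both ACBI1 ratios were lower, by a factor of 1.81 on average, although the ratio itself may be overstated because of the overlaps of IFNAR2. IFNGR1 to IFNGR2 stood at 0.507 and 0.748 with DMSO and 0.284 and 0.423 with ACBI1, again lower in both ACBI1 libraries, by a factor of 1.78. JAK1 to TYK2, the kinases of the type I receptor, stood at 2.34 and 2.71 with DMSO and 1.66 and 1.58 with ACBI1, lower by a factor of 1.55. JAK1 to JAK2, the kinases of the type II receptor, stood at 33.1 and 36.6 with DMSO and 28.1 and 35.4 with ACBI1; these groups overlapped, with ACBI1 lower by a factor of 1.10 on average. STAT2 to JAK1 stood at 0.195 and 0.313 with DMSO and 0.0743 and 0.128 with ACBI1, lower in both ACBI1 libraries by a factor of 2.54. With 2 libraries on either side, the smallest exact permutation p for a single value is 0.333, so these ratios carry no test.

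**Figure D3:**
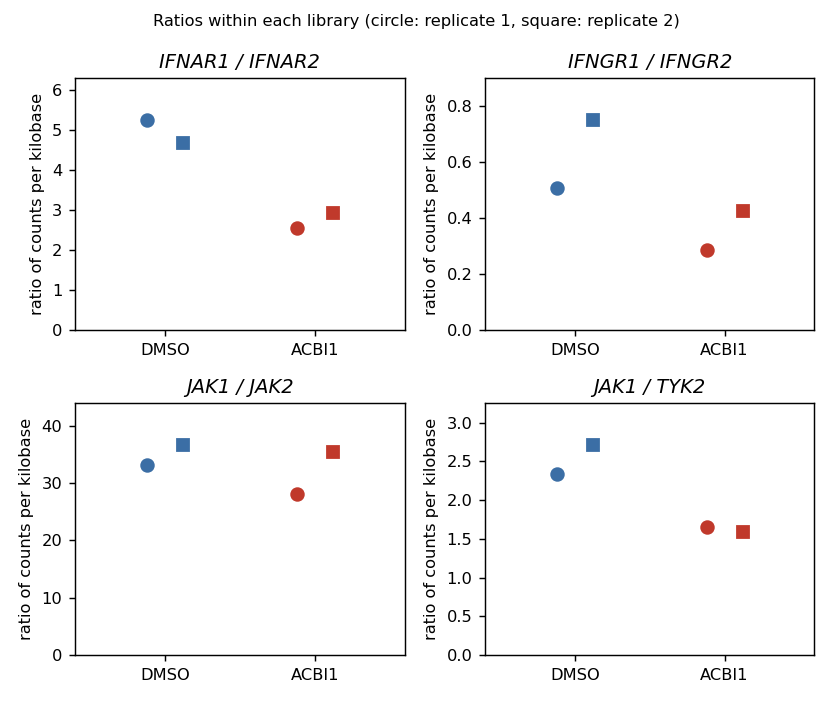
Ratios of counts per kilobase within each library (vertical axis, linear from 0) for 4 pairs of partner genes, DMSO in blue and ACBI1 in red. For IFNAR1 over IFNAR2, IFNGR1 over IFNGR2 and JAK1 over TYK2 both ACBI1 libraries lie under both DMSO libraries, while the groups of JAK1 over JAK2 overlap.

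Other parts of the pathway were followed through lists of genes. Transcripts of the interferons themselves were close to absent. Of 21 interferon genes, 17 had a count of 0 throughout; the limit this sets is 0.0335 to 0.0458 CPM per gene and library (3 counts; counting error only). IFNE, an epithelial type I interferon, was the 1 ligand gene that could be tested, with 37 and 21 counts against 34 and 9 and a log2 change of -0.50 (edgeR adjusted p 0.607).

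Related receptors differed among themselves. Of 8 other class II cytokine receptor genes, the structural family of the interferon receptors, 5 were tested and none was called, with changes from -0.74 to 0.39. IFNLR1, the specific chain of the type III receptor, had a log2 change of -0.20 (edgeR adjusted p 0.724). IL10RB, its partner chain and the neighbour of IFNAR2, had one of 0.39 (edgeR adjusted p 0.587) from 47 to 122 counts per library. Of 29 receptor genes of other cytokines that signal through JAK kinases, 14 were tested, 6 fell and none rose, which is 42.9% of those tested against 17.4% over all genes; the median log2 change was -0.66 against 0.01 over all genes. IL7R, the receptor chain for interleukin 7, had 1567 and 1687 counts with DMSO and 5 and 4 with ACBI1, a log2 change of -8.48 (edgeR adjusted p 0.000851). IL12RB1, a chain of the interleukin 12 receptor that binds TYK2, had 74 and 30 counts with DMSO and 0 in both ACBI1 libraries, at least 14.5-fold lower (mean of the DMSO libraries over a floor of 3 counts per library). This bound was 9.11-fold without DMSO replicate 1 and 19.9-fold without DMSO replicate 2, a check added after the data were seen. IL15RA had a log2 change of -1.83, IL6R one of -2.06 and IL4R one of -1.19 (edgeR adjusted p 0.00321, 0.010 and 0.0156).

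Among 6 other JAK and STAT genes, all tested, 1 was called (16.7%, against 17.4% over all genes). STAT6, the transducer of interleukin 4, fell from 121 to 52.4 CPM, a log2 change of -1.21 (edgeR adjusted p 0.00829). The largest uncalled change was that of STAT4, with a log2 change of -1.01 (edgeR adjusted p 0.131). STAT3 had a log2 change of -0.19 (edgeR adjusted p 0.729), STAT5A one of -0.40 (0.601) and STAT5B one of 0.11 (0.680). JAK3, the kinase of the common gamma chain receptors, had one of -0.36 (0.693).

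The negative regulators went both ways. Of 20, 19 were tested, with 3 called lower, 1 called higher and a median log2 change of 0.17, against 0.01 over all genes; the 21.1% called compare with 17.4%. SOCS1, an inhibitor of JAK kinases that is itself induced by interferon, had 251 and 529 counts with DMSO and 91 and 51 with ACBI1, a log2 change of -2.53 (edgeR adjusted p 0.0230). PTPN1, a phosphatase of JAK2 and TYK2, had a log2 change of -0.75 and SH2B3, an adaptor that restrains JAK2, one of -0.89 (edgeR adjusted p 0.0377 and 0.0467). SOCS7 was called higher, with a log2 change of 1.15 (edgeR adjusted p 0.0146). USP18, which displaces JAK1 from IFNAR2, had one of 0.80 and was not called (edgeR adjusted p 0.0885). Without ACBI1 replicate 1 none of these regulators was called by edgeR, and without ACBI1 replicate 2 the number was 2.

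Of 38 type I target genes, all were tested, 17 fell and 1 rose (47.4% called, against 17.4% over all genes, of which 10.6% lower), with a median log2 change of -1.20 against 0.01 over all genes. MX2, an antiviral GTPase, had a log2 change of -5.21 and OAS2, an enzyme that senses double-stranded RNA, one of -2.94 (edgeR adjusted p 0.00257 and 0.00966). XAF1 and OASL had log2 changes of -4.34 and -5.30 (edgeR adjusted p 0.00653 and 0.00854) that rested on 7 and 6 ACBI1 counts, and BST2 had 276 counts against 1 (a 279-fold ratio, exact 95% counting interval 49.7 to 11063). The 1 gene called higher, named here after its values were seen, was HERC5, the ligase for ISG15, with a log2 change of 1.32 (edgeR adjusted p 0.010). Without ACBI1 replicate 1 or without ACBI1 replicate 2, 11 type I targets were called in each case.

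Of 25 type II target genes, 19 were tested, 14 fell and none rose (73.7% called, against the same 17.4%), with a median log2 change of -2.02 against 0.01. ICAM1, an adhesion molecule, went from 186 to 10.6 CPM, a log2 change of -4.13 (edgeR adjusted p 0.00141). GBP2, GBP4 and GBP3, guanylate-binding proteins, had log2 changes of -5.01, -4.68 and -3.41 (edgeR adjusted p 0.00185, 0.00431 and 0.00636), and GBP5 had 288 and 66 counts against 0 and 0, at least 48.7-fold lower by the same floor. The DMSO libraries of GBP5 lay far apart, and the bound was 20.05-fold without DMSO replicate 1 and 77.3-fold without DMSO replicate 2. Many genes in both target lists also answer to NF-kB or other factors, so the lists do not measure interferon signalling alone. Similar target lists had been examined in these libraries before, so the counts are no independent support, and the difference from the receptor and transducer genes was not tested.

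**Figure D4:**
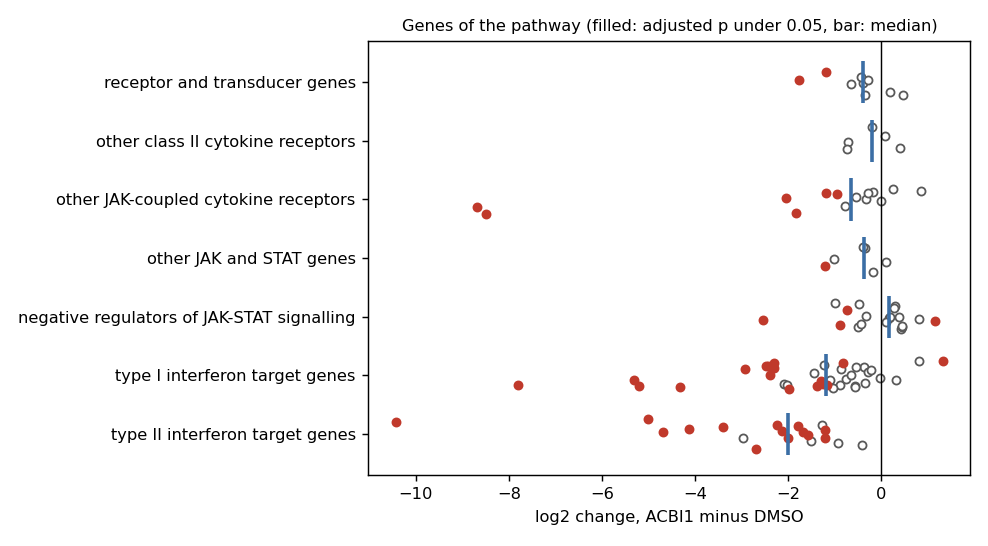
Log2 change with ACBI1 against DMSO (horizontal axis) of each tested gene, by list, with a blue bar at the median and filled points for genes that passed the test; vertical scatter within a list has no meaning. The medians of the type I and type II target genes, -1.20 and -2.02, lie to the left of the median of the receptor and transducer genes, -0.39.

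Neighbours of the genes were examined to see whether whole regions moved. Within 300 kb there were 114 other protein-coding genes, of which 94 were tested, 7 were called higher and 7 lower, against 6.75% and 10.6% over all genes tested, with a median log2 change of 0.10. IFNAR1, IFNAR2 and IFNGR2 lie close together on chromosome 21, with IL10RB between IFNAR2 and IFNAR1. Around them, 8 further genes were tested. The 1 called, named after its values were seen, was GART, an enzyme of purine synthesis, with a log2 change of 1.00 (edgeR adjusted p 0.0308). Neither of the 2 tested neighbours of IFNGR1 was called. Of 23 tested neighbours of STAT2, 2 were called higher and 2 lower, among them GLS2, a glutaminase, with a log2 change of 2.13 (edgeR adjusted p 0.0351). Levels of GLS2 were low, at 0.111 and 0.209 CPM with DMSO and 0.648 and 0.747 CPM with ACBI1. Exon overlaps were read for 37 genes named beside the 9 and the targets for their values in the pathway lists, regions or pattern. STAT4 was not among them. Of these 37, 4 share over 10% of their exonic length with other genes, so that their counts are uncertain: GLS2 (82.8%), XAF1 (38.3%), IL10RB (38.1%) and ICAM1 (23.6%). On the same strand the share was 38.1% for IL10RB, 5.65% for GLS2 and 0% for XAF1 and ICAM1. Overlap on the opposite strand matters only if strand was ignored in the counting, which is not stated. Around TYK2, 23 neighbours were tested, with 2 called higher and 1 called lower, the latter being ICAM1, given above. Near IRF9, 4 of 30 were called lower and 1 higher: PSME1, a proteasome activator subunit, had a log2 change of -1.66, NYNRIN one of -1.87 and CARMIL3 one of 2.09 (edgeR adjusted p 0.00527, 0.0449 and 0.0391). NYNRIN and CARMIL3 were low as well. NYNRIN had 1.58 and 3.42 CPM with DMSO and 0.748 and 0.610 CPM with ACBI1. CARMIL3 had 0.282 and 0.556 CPM with DMSO and 2.23 and 1.31 CPM with ACBI1.

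**Figure D5:**
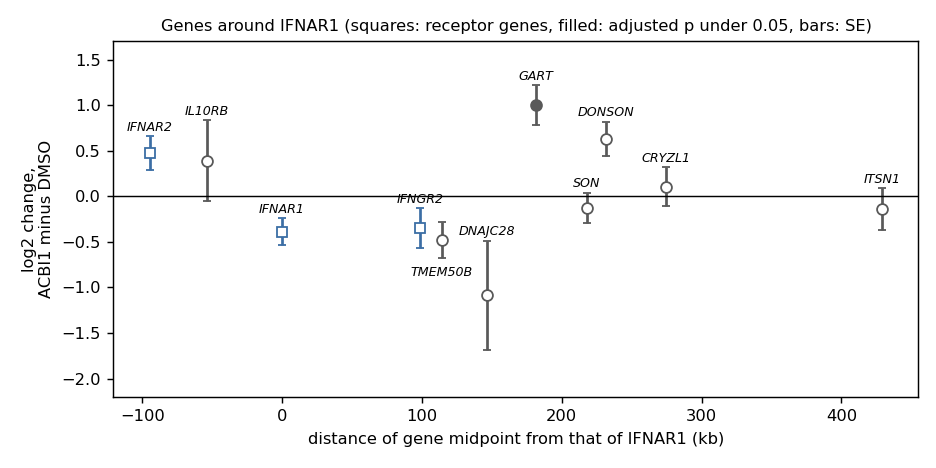
Log2 change with ACBI1 against DMSO (vertical axis, bars are SE) of tested protein-coding genes by the distance of their midpoint from that of IFNAR1 in kb. The receptor genes (squares) are open, with IFNAR2 at 0.47, IFNAR1 at -0.39 and IFNGR2 at -0.35, and the filled point is GART at 1.00.

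The genes whose pattern over the 4 libraries was most like that of STAT2 were RDH10, CPED1 and NEU1, by Euclidean distance of centred log2 CPM (distances 0.0784, 0.126 and 0.129) among genes averaging 5 CPM or more. RDH10 had 62.0 and 102 CPM with DMSO and 18.1 and 29.5 CPM with ACBI1. As with STAT2, replicate 2 was higher within each group. A likeness over 4 libraries is shared by chance by many genes and is given as a description.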

How the data were processed

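RNA-seq of 4 libraries was analysed, 2 with DMSO and 2 with ACBI1, grouped by sample title. The deposited values are raw counts for each gene symbol in htseq-count form, without normalization by the authors. The submitters' processing notes list TopHat2 2.1.1, HTSeq 0.11.0 and build hg38 without roles; the annotation and strand setting are not given in the sources used here. Symbols of 36501 of 61228 genes matched GENCODE release 29 (GRCh38), which gave lengths, positions and overlaps. Gene counts were 84.6% to 86.1% of reads listed; the other reads, which name no gene, were left out.

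Genes were filtered with filterByExpr (minimum count 10, minimum total 15; 19159 kept), scaled by TMM and tested in edgeR 4.0.16 (R 4.3.3; estimateDisp, glmQLFit, glmQLFTest, two-sided, treatment only), with Benjamini-Hochberg adjustment over all genes and a threshold of 0.05. All 9 genes passed the filter. Intervals of log2 changes use the test's SE and degrees of freedom. Tested on simulated counts for this comparison (18682 genes, 200 changed), 40.9% of the changes of log2 1 and 81.8% of those of log2 2 were recovered by edgeR. There were 8 false calls. The simulation changed far fewer genes than were called here and set the spread of a gene by its abundance only. Recovery in the real data may therefore differ. Counting intervals and floors cover counting error only.

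The genes and lists were chosen with earlier results of these data known. The text names all 9 genes, the degrader's targets, up to 5 called genes per list and up to 5 called neighbours by size of change, and the 3 genes most like the called gene with the largest change; any others serve as context. As alternatives, scaling was by library size only, upper quartile or DESeq2 size factors, other filters were used, and further runs had a replicate block, DESeq2 1.42.0, limma-voom 3.58.1, a robust fit, a threshold of 0.01, glmTreat against a log2 change of 0.5, or 1 library fewer.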

Additional observations from a re-analysis of the deposited data

How the results depend on the processing

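IFNGR1 and STAT2 were called lower in each of 9 alternatives on all 4 libraries at the threshold of 0.05 without a block (other scalings, filters, tests, the robust fit and the minimum change), with log2 changes from -1.20 to -1.10 and from -1.80 to -1.70. None of the other genes was called in those 9 (8 for IRF9, which the filter at a mean of 5 CPM removed), and no change of the 9 genes reversed its sign in any alternative. Adjusted p ranged from 1.09e-06 to 0.0237 for IFNGR1 and from 1.32e-13 to 0.0307 for STAT2.

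At a threshold of 0.01, 1 of the 9 genes was called lower (STAT2 was lost), and the calls were 172 higher and 611 lower over all genes, 2 for JAK-coupled receptors, 0 for negative regulators, 8 for type I targets and 9 for type II targets. Testing every gene with a count gave 2202 higher and 3316 lower and 1 class II receptor; DESeq2 likewise called 1. A filter at a mean of 5 CPM left 10 called type I targets. A minimum log2 change of 0.5 gave 450 higher and 1242 lower and 2 negative regulators.

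With the replicate number as a block, 3708 genes were called higher and 4201 lower (41.3% of those tested), and of the 9 genes 1 was higher (IFNAR2, adjusted p 0.0285) and 5 lower: IFNGR1, STAT2, IFNAR1 (0.0273), JAK1 (0.0205) and IFNGR2 (0.0377). That block also called 1 class II receptor, 2 other JAK and STAT genes, 10 negative regulators and 29 type I targets. Deviations from group means correlated at 0.518 between same-numbered libraries over genes, but the labels do not say what a number marks, and with 2 pairs the pairing was not used.

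With 1 library left out (the lone library is assumed to vary like the other group), calls ranged from 415 to 1651 higher and from 964 to 2641 lower, from 1 to 2 of the 9 genes lower, from 0 to 4 negative regulators and from 11 to 22 type I targets. The lowest numbers over all genes came without ACBI1 replicate 1, where IFNGR1 lost its call. Depth limits IRF9, with 31 to 88 counts, and reads shared with other genes limit IRF9 and IFNAR2.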
